A study of Mus musculus with 6 samples.

Results

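Wnt, Notch, semaphorin, ephrin and Slit genes were examined in mouse bone marrow-derived macrophages with a myeloid knockout of the long non-coding RNA Morrbid and in their controls. The set was drawn by gene symbol and holds the Wnt ligands with their Frizzled receptors, co-receptors, secreted inhibitors and planar polarity partners, the Notch receptors and ligands, the semaphorins with plexins and neuropilins, the Eph receptors and ephrins, and the Slit and Robo genes. It comprised 104 of the 16138 genes in the authors' deposited table, in 14 families, and all 104 are of the type mRNA there. The RefSeq annotation of GRCm38 lists 115 protein-coding symbols of the same pattern, and those beyond the 104 were not analysed here.

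The knockout macrophages, called cKO, carried the genotype Morrbidfl/fl/Lyz2-Cre (3 samples), and the control macrophages carried Morrbidfl/fl (3 samples). All mice thus had the loxP-flanked Morrbid gene, and Cre, expressed in myeloid cells from the Lyz2 locus, was present in the cKO mice alone, so that effects of Cre and of Morrbid loss cannot be told apart. Marrow cells of both groups were grown for 7 days with 50 ng/ml of macrophage colony-stimulating factor, which drives progenitors to macrophages. The ages of the mice, and whether the samples of a group came from separate animals, are not given in the sources used here, so the p-values cover the spread among these samples alone, and that spread may be technical.

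These families carry short-range signals between neighbouring cells. Wnt proteins bind Frizzled receptors, together with Lrp5 or Lrp6 to stabilise beta-catenin, or together with Ror, Ryk or Ptk7 to steer cell polarity and movement, and Sfrp and Dkk proteins act on the pathway from outside the cell. Notch receptors are cleaved when a neighbouring cell presents a Jagged or Delta-like ligand, and the freed part works with the DNA-binding protein RBPJ. Semaphorins, ephrins and Slits were first known as guides of growing axons; they act through plexins and neuropilins, Eph kinases and Robo receptors, and in the immune system they bear on the migration and contact of myeloid cells.

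Values per library were not analysed here: the authors' deposited table gives 1 log2 fold change of cKO over control per gene, with 1 p-value and 1 q-value, and the depth of the libraries is unknown. The threshold for calling a gene changed was q under 0.05. The precision of each fold change was taken from the standard error that its p-value implies, and the 95% intervals given with fold changes were computed from that error. Lyz2 itself, whose locus carries Cre, was lower in cKO in the authors' deposited table, with a log2 fold change of -0.85 (q = 4.6e-06). Morrbid was not analysed here, so its deletion was not checked.

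Of the 104 genes, 6 were changed (5.77%), against 1.72% of all genes in the authors' deposited table. Nrp2 and Plxna1, a receptor pair for semaphorins, were higher in cKO, which makes 2 of 104 against 0.849% of all genes called higher. Ptk7, Epha2, Sema7a and Fzd7 were lower, which makes 4 of 104 against 0.874% of all genes called lower. In the authors' deposited table Ptk7, Epha2 and Sema7a stood at 21.4%, 22.5% and 30.1% of their control levels, and Fzd7 at 69.9%. Nrp2 and Plxna1 stood at 129% and 139%. A call needed a fold change above 3.33 times its implied error. Ptk7, Epha2 and Sema7a had larger errors than the other changed genes, so only large changes could be called for them. The sizes of increases and decreases are therefore not compared. Receptors and co-receptors made up 5 of the 6, out of 47 measured (10.6%), and Sema7a was the only changed gene among 48 ligands (2.08%). The ligands were measured less closely: 20 of the 48 had an implied error of at most 1 log2 unit, against 26 of the 47. The difference between receptors and ligands was not tested. No changed gene was found among the Notch receptors and ligands, the ephrins, the Wnt ligands, the secreted Wnt inhibitors, the planar polarity proteins, or the Slit and Robo genes. At an unadjusted p under 0.05 there were 17 of the 104 genes (16.3%), against 8.84% of all genes; among the families without a call these were 1 Notch gene, 2 ephrins, 1 Wnt ligand, 1 inhibitor, 1 polarity gene and 2 Slit and Robo genes.

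**Figure D1:**
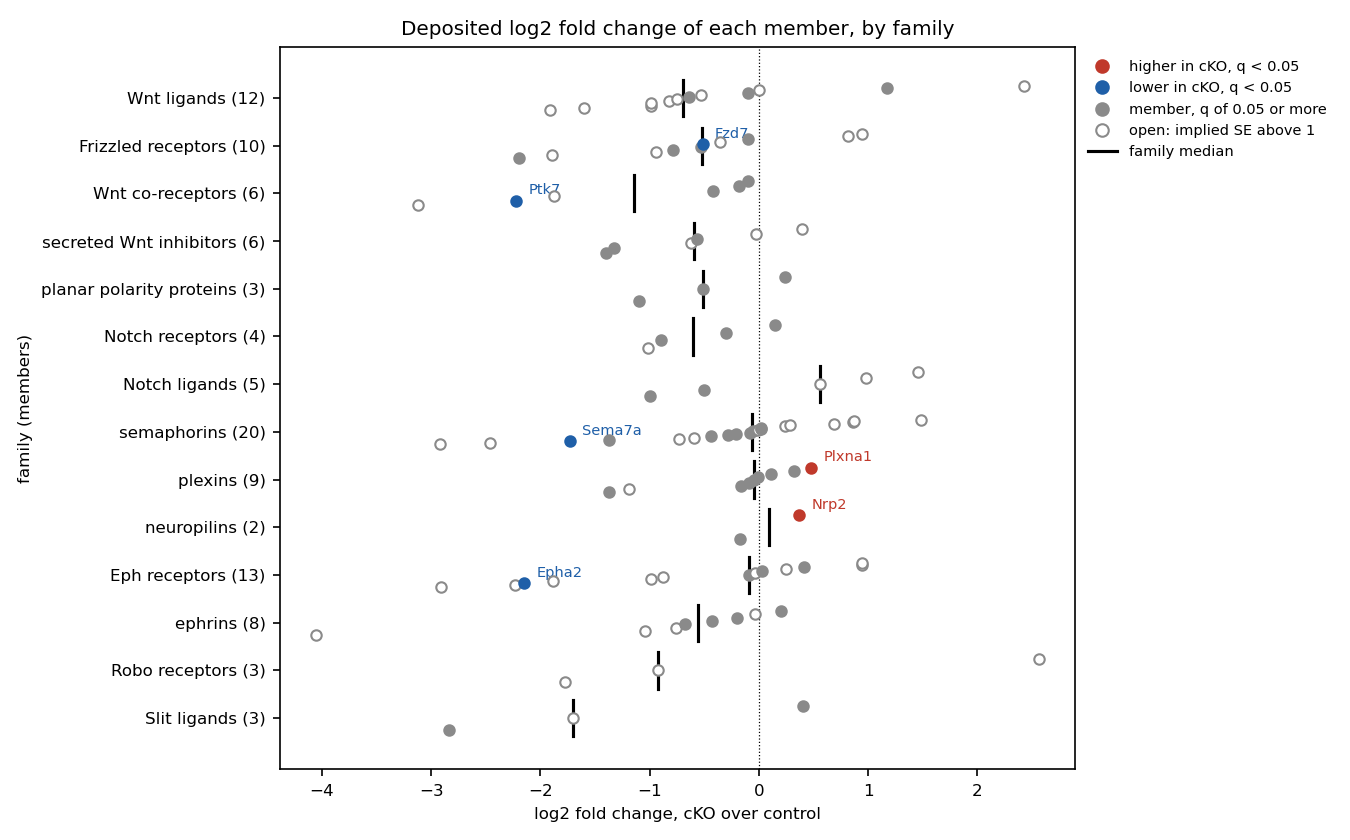
Each point is 1 gene, placed by its deposited log2 fold change of cKO over control, in rows by family with the number of genes in brackets. Red and blue points passed q under 0.05, open points have an implied standard error above 1 log2 unit, and black bars are family medians. The changed genes are Nrp2 and Plxna1 on the right and Ptk7, Epha2, Sema7a and Fzd7 on the left.

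To show the DNA upstream of the genes the results turn on, the 250 bases before the annotated start are given for the changed genes with an entry in the RefSeq promoter table of build GRCm38.p6, 5′ to 3′ along the strand of the gene. Capitals mark matches on either strand to CTTTGA, the core of the sites that the Wnt-responsive TCF and LEF factors bind, to GTGGGAA, bound by RBPJ, and to GGGCGG, the GC box.
Ptk7 (chr17:46629505-46629754, minus strand): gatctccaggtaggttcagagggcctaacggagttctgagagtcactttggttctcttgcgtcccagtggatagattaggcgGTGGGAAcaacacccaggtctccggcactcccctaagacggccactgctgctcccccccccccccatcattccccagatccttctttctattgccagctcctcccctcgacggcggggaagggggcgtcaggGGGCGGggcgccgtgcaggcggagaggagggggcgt
Epha2 (chr4:141300971-141301220, plus strand): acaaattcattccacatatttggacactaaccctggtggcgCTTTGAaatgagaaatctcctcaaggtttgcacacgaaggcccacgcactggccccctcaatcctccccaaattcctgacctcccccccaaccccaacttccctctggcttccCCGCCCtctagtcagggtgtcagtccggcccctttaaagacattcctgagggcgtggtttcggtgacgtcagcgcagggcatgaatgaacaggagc
Sema7a (chr9:57939862-57940111, plus strand): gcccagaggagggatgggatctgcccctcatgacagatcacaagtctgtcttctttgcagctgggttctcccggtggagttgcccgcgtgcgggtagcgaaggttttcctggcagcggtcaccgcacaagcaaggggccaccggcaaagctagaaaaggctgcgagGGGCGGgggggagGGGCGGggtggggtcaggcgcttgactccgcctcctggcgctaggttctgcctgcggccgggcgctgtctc
Fzd7 (chr1:59481897-59482146, plus strand): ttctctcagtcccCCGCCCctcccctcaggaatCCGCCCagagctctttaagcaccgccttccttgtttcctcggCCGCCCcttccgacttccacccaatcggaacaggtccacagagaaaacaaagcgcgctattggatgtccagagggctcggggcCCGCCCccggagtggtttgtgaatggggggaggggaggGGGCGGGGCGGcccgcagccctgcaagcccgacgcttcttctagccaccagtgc
Nrp2 (chr1:62703067-62703316, plus strand): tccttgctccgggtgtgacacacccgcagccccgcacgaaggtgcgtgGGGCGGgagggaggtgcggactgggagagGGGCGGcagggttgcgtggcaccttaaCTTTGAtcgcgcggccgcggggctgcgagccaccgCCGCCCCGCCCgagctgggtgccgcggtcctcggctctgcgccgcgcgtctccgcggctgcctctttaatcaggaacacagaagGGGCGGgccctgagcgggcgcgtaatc
CTTTGA occurred 1 time each upstream of Epha2 and Nrp2, and GTGGGAA 1 time upstream of Ptk7. GC boxes numbered 6 before Fzd7 and 5 before Nrp2, each count with a pair that overlaps by 1 base, 2 before Sema7a, and 1 each before Ptk7 and Epha2. Of the 104 genes, 85 have entries in that promoter table, 105 windows in all, and 7.62% of these windows held CTTTGA, 4.76% held GTGGGAA and 71.4% held GGGCGG. For the 15765 windows of genes in the authors' deposited table the shares were 11.2%, 5.52% and 52.1%, and for all 32851 windows, cut to the same 250 bases, they were 13.8%, 5.42% and 32.7%. These are matches of letters, and binding was not measured.

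Most Wnt genes had fold changes below 0, and both that passed were receptors. Of 37 Wnt ligands, receptors, co-receptors, inhibitors and polarity genes, 2 fell (5.41%), against 0.874% of all genes called lower, and 35 did not pass. Log2 fold changes below 0 were found for 30 of the 37, with a median of -0.56. Over all genes of the authors' deposited table the median was -0.01, and 52.3% lay below 0. Only 18 of the 37 had an implied error of at most 1 log2 unit. Of all genes with an error above 1, 59.6% lay below 0. Ptk7 (Gene ID 71461), a receptor-like pseudokinase that takes part in polarity signalling, was lower in the authors' deposited table at -2.22 (q = 0.0110), with an interval of -3.36 to -1.09. Fzd7 (Gene ID 14369), a Frizzled receptor used in both beta-catenin and polarity signalling, was lower at -0.52 (q = 0.0399) by the authors' deposited table, which is 69.9% of the control level, and its interval of -0.81 to -0.22 was much narrower.

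The other Frizzled genes and co-receptors gave a mixed picture. Of the 10 Frizzled genes 8 had fold changes below 0, with a median of -0.52, and 5 had an implied error of at most 1 log2 unit. Fzd10, below 0, and Fzd9, above 0, shared their values with other genes. Fzd2 had a log2 fold change of -2.19 and missed the threshold in the authors' deposited table (q = 0.375), with an interval of -4.08 to -0.31, while Fzd5 stood at -0.10 with an interval of -0.58 to 0.37. All 6 co-receptors, among them Ror1 with values that 30 genes share, had fold changes below 0 in the authors' deposited table, from -3.12 to -0.10. The extreme one was Ror2, a receptor of Wnt5a, at -3.12 (q = 0.490) by the authors' deposited table, and its interval was wide, from -6.04 to -0.19. Lrp5 and Lrp6, the co-receptors of the beta-catenin branch, were measured closely, and in the authors' deposited table stood at -0.18 (q = 0.768) and -0.10 (q = 0.993). Their intervals, -0.40 to 0.04 for Lrp5 and -0.37 to 0.17 for Lrp6, do not reach a change of 1 log2 unit.

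None of the 12 Wnt ligands passed, against the 1.72% of all genes called. Wnt6 came nearest in the authors' deposited table, at 1.18 with q = 0.0916, and its interval was 0.43 to 1.92. Wnt5a, the ligand shared by Ror2 and several Frizzleds, stood at -1.60 (q = 0.805) by the authors' deposited table, with an interval of -3.65 to 0.44. Only 3 of the 12 ligands (Wnt2b, Wnt4 and Wnt6) had an implied error of at most 1 log2 unit. Wnt2 and Wnt9b shared their fold change of -0.98 and their p-value with each other and with other genes, 407 in all in the authors' deposited table, so their values say nothing about them singly.

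Among the 6 secreted inhibitors, 5 had fold changes below 0 in the authors' deposited table and none passed. Dkk3, a secreted Dickkopf relative, stood at -1.40 (q = 0.291) by the authors' deposited table, with an interval of -2.51 to -0.29. Sfrp4, a decoy that resembles the ligand-binding part of a Frizzled, stood at -1.33 (q = 0.796) by the authors' deposited table. For the polarity proteins, Vangl2 stood at -1.10 (q = 0.487) and its relative Vangl1 at 0.23 (q = 0.993) by the authors' deposited table, with overlapping intervals of -2.13 to -0.07 and -0.87 to 1.34.

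Semaphorin receptors held both increases, 1 neuropilin and 1 plexin. The 9 plexins had a median of -0.05, and 8 of them had an implied error of at most 1 log2 unit. Nrp2 (Gene ID 18187), a neuropilin that binds class 3 semaphorins and the growth factor VEGF-C, was higher in the authors' deposited table at 0.36 (q = 0.00780), with an interval of 0.18 to 0.54. Plxna1 (Gene ID 18844), a plexin that signals for neuropilins and also binds class 6 semaphorins, was higher at 0.48 (q = 0.0254) by the authors' deposited table, with an interval of 0.22 to 0.74. Exons of Plxna1 overlap those of Gm26811, an antisense gene on the other strand in GENCODE M21 that the authors' deposited table does not hold. Whether strand was used in counting is not stated in the sources used here, so reads of Gm26811 from the shared stretches may have been counted for Plxna1. Their closest relatives in the authors' deposited table missed the threshold: Nrp1 stood at -0.18 (q = 0.805), Plxna2 at -0.05 (q = 0.993) and Plxna3 at 0.32 (q = 0.989). The interval of Nrp1, -0.40 to 0.05, does not overlap that of Nrp2, although the difference between the genes was not tested. Plxna4, another class A plexin, stood at -1.37, short of the threshold by the authors' deposited table (q = 0.0930).

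Sema7a (Gene ID 20361), a semaphorin held in the membrane by a lipid anchor and known to act on monocytes and macrophages, was lower at -1.73 (q = 0.0193) by the authors' deposited table, with an interval of -2.65 to -0.81. It was the only changed one of 20 semaphorins, whose median was -0.07. Its plexin receptor Plxnc1 stood at -0.09 (q = 0.993) by the authors' deposited table, and the interval of -0.47 to 0.29 holds no change of 1 log2 unit. The class 3 semaphorins, which include secreted ligands of Nrp2, could hardly be assessed: of 7 measured, Sema3f alone had an implied error of at most 1 log2 unit, and it stood at -0.44 (q = 0.993) by the authors' deposited table. The class 4 genes, which are membrane proteins made by many immune cells, were measured more closely. Sema4d, a ligand of class B plexins, stood at -0.05 (q = 0.993) and Sema4a at -0.28 (q = 0.932) by the authors' deposited table. Plxnb2, a receptor of Sema4d and the most precisely measured of the 104 genes, stood at 0.11 (q = 0.917) by the authors' deposited table, with an interval of -0.06 to 0.28. Sema6d, a ligand of Plxna1, stood at 0.02 (q = 1.00) by the authors' deposited table, and Sema6c at -1.37 (q = 0.688).

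**Figure D2:**
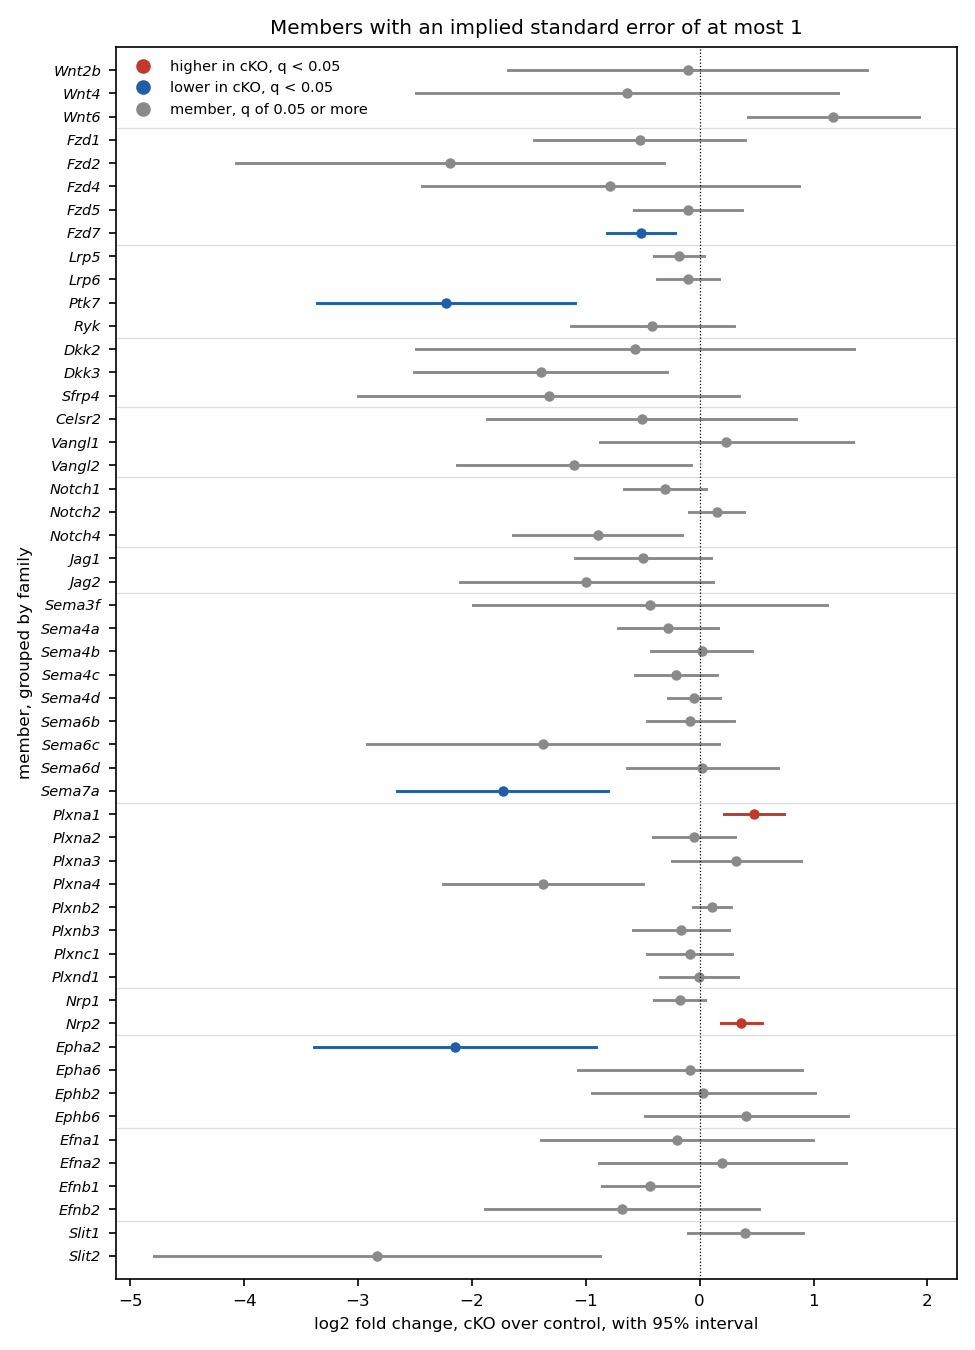
Points are deposited log2 fold changes of cKO over control for the 52 genes whose implied standard error was at most 1 log2 unit, and lines are the 95% intervals computed from that error. Genes are grouped by family, and red and blue mark q under 0.05. The intervals of Nrp2 and Plxna1 lie above 0, and those of Fzd7, Ptk7, Sema7a and Epha2 below it.

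In the ephrin system 1 of 13 Eph receptors fell and none of 8 ephrins passed, against 1.72% of all genes called. Their medians were -0.09 and -0.56, and 5 of the Eph receptors shared their values with other genes. An implied error of at most 1 log2 unit was found for 4 of the 13 Eph receptors and 4 of the 8 ephrins. Epha2 (Gene ID 13836), a receptor tyrosine kinase of epithelial and vascular cells, was lower at -2.15 (q = 0.0422) by the authors' deposited table, with an interval of -3.39 to -0.91. Only 2 of the 9 EphA receptors, Epha2 and Epha6, had an implied error of at most 1. Epha5 and Epha10 each shared the values 0.94 and p = 0.818 with 391 genes in the authors' deposited table, themselves included, and Epha8 was among the 407 genes at -0.98. Of the ligands of Epha2, Efna1 stood at -0.20 (q = 0.993) by the authors' deposited table, and Efna5 at -4.05 (q = 0.559), with an interval of -8.08 to -0.03. The other A ephrins, Efna2, Efna3 and Efna4, stood at 0.20, -0.04 and -1.04, and of these Efna2 alone had an implied error of at most 1. The B ephrins, which span the membrane, all had fold changes below 0: Efnb1 stood at -0.43 (q = 0.529), Efnb2 at -0.68 (q = 0.992) and Efnb3 at -0.76 (q = 0.993) by the authors' deposited table. Among their receptors, Ephb2 stood at 0.03 (q = 0.9998) and Ephb6 at 0.41 (q = 0.993) by the authors' deposited table. Ephb3 and Ephb4 lay below 0, at -0.03 (q = 0.9998) and -0.88 (q = 0.993), and each had an implied error above 1.

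Notch receptors and ligands showed no called change, and the main receptors were measured closely. At an unadjusted p under 0.05 there was 1 of these 9 genes, Notch4, against 8.84% of all genes in the authors' deposited table. Notch1 stood at -0.30 (q = 0.743) and Notch2 at 0.15 (q = 0.942) by the authors' deposited table, with intervals of -0.67 to 0.06 and -0.09 to 0.39. Notch4, best known from endothelium, stood at -0.90 (q = 0.333) by the authors' deposited table. The ligands Jag1 and Jag2 stood at -0.50 (q = 0.744) and -0.99 (q = 0.681) by the authors' deposited table. Dll1, Dll3 and Dll4 had fold changes above 0, from 0.56 to 1.46 in the authors' deposited table, and each had an implied error above 1.

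For the Slit ligands and Robo receptors the values were spread widely. Slit2 stood at -2.83 (q = 0.154) by the authors' deposited table, with an interval of -4.79 to -0.87, and its relatives Slit3 and Slit1 at -1.70 (q = 0.948) and 0.40 (q = 0.788). Robo2 stood highest of all 104 genes, at 2.56 (q = 0.563) by the authors' deposited table, but its interval ran from 0.01 to 5.11. Robo1, the other widely used Slit receptor, stood at -1.78 (q = 0.826) by the authors' deposited table. Of the 6 genes, 2 had an unadjusted p under 0.05, Slit2 and Robo2.

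The precision of the fold changes differed widely between genes. The median implied error was 1.02 log2 units over the 104 genes, against 0.185 over all genes of the authors' deposited table, and a fold change had to exceed 3.33 times its error to be called. An error of at most 1 was found for 52 of the 104 genes in the authors' deposited table, against 76.9% of all genes. The 6 calls came from these 52 genes, where 2.24% of all genes with such an error were called. Both increases and Fzd7 belonged to the 15 genes with an error of at most 0.2, whose median fold change was -0.08, beside 0.01 for all genes of that precision. Ptk7, Epha2 and Sema7a belonged to the 37 genes with an error from 0.2 to 1, whose median was -0.50, with 28 below 0, beside a median of -0.06 for all genes of that precision, with 56.5% below 0. The remaining 52 genes had a median of -0.68, beside -0.03, and 20 of them shared both fold change and p-value with at least 1 other gene in the authors' deposited table.

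**Figure D3:**
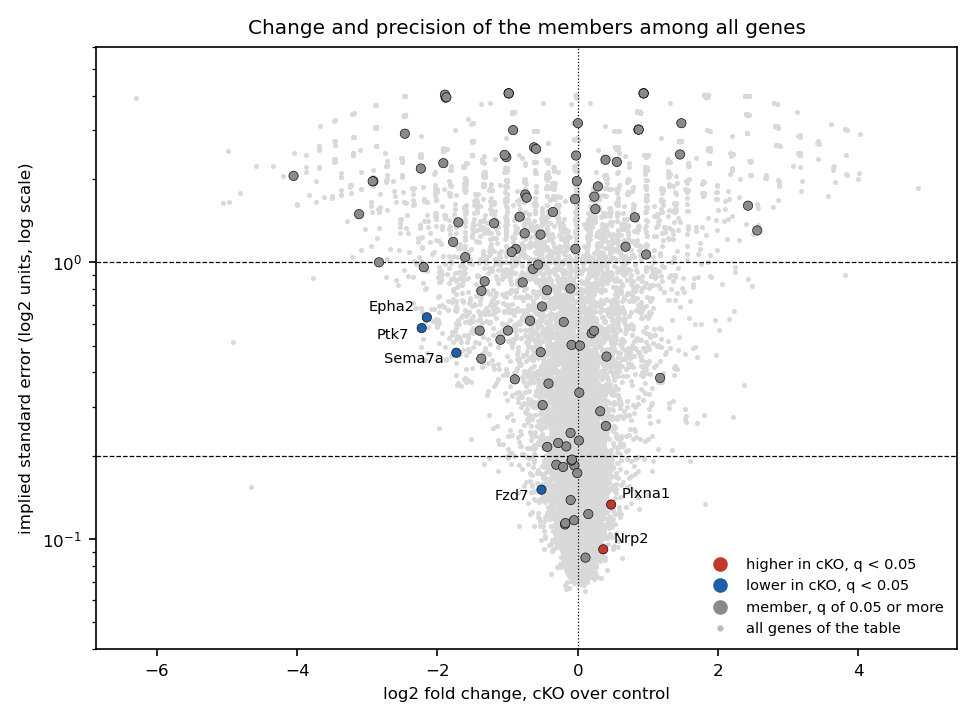
The deposited log2 fold change of cKO over control is plotted against its implied standard error on a log scale for all 16138 genes (grey dots) and the 104 signalling genes (outlined points, red and blue at q under 0.05). Dashed lines mark errors of 0.2 and 1 log2 units. Nrp2, Plxna1 and Fzd7 lie below the lower line, and Ptk7, Epha2 and Sema7a between the lines.

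Markers of stromal cells were lower alongside the decreases. Ptk7, Epha2 and Sema7a lay between -2.22 and -1.73, and among 22 measured stromal markers, chiefly of fibroblasts, the median was -1.69, with 21 below 0, 3 called lower and none called higher in the authors' deposited table. The most significant were Col5a1, a fibrillar collagen, at -1.70 (q = 0.000815), Loxl1, which crosslinks elastin, at -1.88 (q = 0.00342), and the smooth muscle actin gene Acta2, at -2.06 (q = 0.0458), by the authors' deposited table. Of 7 osteoblast markers 6 lay below 0 (median -0.97) and none passed. The 12 macrophage markers had a median of 0.06, with 1 higher, the adhesion receptor Adgre1 at 0.44 (q = 0.0104), and 1 lower, Lyz2, in the authors' deposited table. Of 8 endothelial markers 1 was higher, Pecam1 at 0.81 (q = 0.00156) by the authors' deposited table, with a list median of 0.43. No marker passed among 7 of dendritic cells (median -0.07), 8 of neutrophils (-0.29), 7 of lymphocytes (-0.08) or 6 of erythroid cells and megakaryocytes (-0.51). In these 4 lists 4, 8, 6 and 4 markers lay below 0, in that order, beside 3 of the 12 macrophage and 2 of the 8 endothelial markers. At an unadjusted p under 0.05 there were 17 of the 22 stromal markers (77.3%), against 8.84% of all genes. The macrophage list had 3 of 12 at that level and the endothelial list 1 of 8. There were 2 each of the osteoblast, dendritic and erythroid lists and 0 of the neutrophil and lymphocyte lists. The part of the stromal markers in the lower signalling genes was not tested, the macrophage identity of the cultures was not checked as it needs levels per library, which were not analysed here, and in such bulk samples fewer cells of a type and less RNA per cell cannot be told apart.

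Other genes of these pathways, from ligand secretion to target genes, were followed in 7 lists of 203 symbols, of which 187 were measured in the authors' deposited table. Of these, 3 rose and 4 fell, which is 3.74%, against 1.72% of all genes. Among 25 genes of polarity and beta-catenin-independent signalling, Daam1, a formin that links Dishevelled to the actin cytoskeleton, rose, at 0.62 (q = 0.000177) by the authors' deposited table. Among 32 genes of Wnt signal transduction, Csnk1e, a casein kinase that phosphorylates Dishevelled, fell, at -0.47 (q = 0.00074) by the authors' deposited table, and the list median was 0.00. No gene passed among 17 Wnt targets, of which 7 had an error of at most 1 and 4 shared their values with other genes. Of the 17, 15 lay below 0, but the list median of -0.98 is the value of Notum, which 407 genes share. Only 1 had an unadjusted p under 0.05, namely Wisp2 at -1.32 (q = 0.522) by the authors' deposited table. No call was made either among 20 genes of Wnt secretion and extracellular control (median -0.43), of which 3 had an unadjusted p under 0.05, and the smallest p belonged to Serpinf1, also a stromal marker, at -2.09 (q = 0.0930) by the authors' deposited table.

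Out of 38 genes of Notch processing and transcription, Rbpj rose, at 0.44 (q = 0.00673) by the authors' deposited table, and no other passed. That is 2.63% of the list, near the 1.72% of all genes called. Adam10, the protease that makes the first activating cut in Notch, stood at -0.29 (q = 0.0804) by the authors' deposited table. Among 8 Notch target genes 1 fell (12.5%), against 1.72% of all genes called. This was Bhlhe40, a helix-loop-helix repressor with many other inputs, at -0.82 (q = 0.0480) by the authors' deposited table. Hes1, a more direct target, stood at -1.22 (q = 0.912). Among 55 effectors of axon guidance 1 rose and 2 fell (5.45%), against 1.72% of all genes called. Vasp and Enah, related proteins that promote actin filament growth, moved in opposite directions, with Vasp higher at 0.44 (q = 0.0446) and Enah lower at -1.78 (q = 0.0379) by the authors' deposited table. Dpysl3, of the collapsin response mediator family that relays semaphorin signals in neurons, fell, at -1.81 (q = 0.00815) by the authors' deposited table. Enah and Dpysl3 lay beside the stromal marker median of -1.69, whose part in these values was not tested. Their implied errors of 0.52 and 0.46 allowed only large changes to be called.

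**Figure D4:**
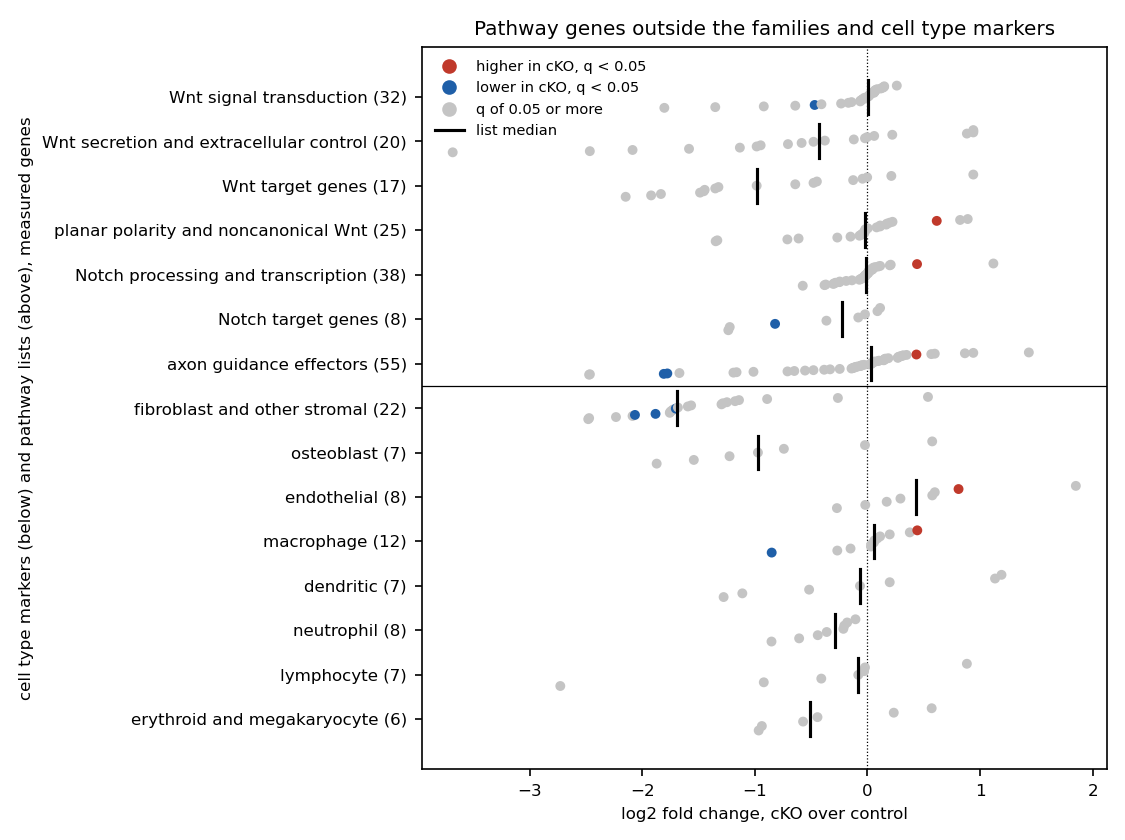
Points are deposited log2 fold changes of cKO over control for the genes of 7 pathway lists (above the line) and 8 cell type marker lists (below it), with the number of measured genes in brackets, and black bars are list medians. Red and blue mark q under 0.05. The stromal markers lie furthest to the left, with a median of -1.69, and the macrophage markers centre on 0.06.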

How the data were processed

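RNA of 6 macrophage samples was sequenced, 3 of cKO and 3 of control mice, grouped by the labelled genotype. The authors deposited 1 table with a log2 ratio, a p-value and a q-value per gene (per the file headers, of Morrbid cKO over WT), and the control group was taken to be WT. The tools named in the submitters' processing notes are DESeq2 1.4.5, RSEM 1.3.1 and Bowtie2, with build mm9 and no role stated; library scaling, filters on low genes and shrinkage of ratios are not given in the sources used here. All deposited q-values matched a Benjamini-Hochberg adjustment over the whole table to a relative difference of 0.00591. No model was refitted. The implied standard error, |log2 ratio| over the normal quantile of the two-sided p, assumes a Wald-type test, and it stood in for depth. Its calculation and the adjustments were tested on data simulated from the same normal model, which cannot check the assumption of a Wald-type test.

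Members and lists were chosen with earlier results of these data known, and no set test was run. Named genes were the changed genes, the smallest p per family, fold changes of at least 1 log2 unit with an error of at most 1, the most precise genes, partners of changed genes, changed list genes and the leading stromal, macrophage and endothelial markers; further relatives, such as Robo1, Sema6d and Hes1, were named after their values were seen, and the leading markers of the other cell types were left out. Promoter sequences came from RefSeq (GRCm38.p6), whose build differs from mm9. Alternatives were a q of 0.01, a minimum fold change, a Holm adjustment and 2 smaller gene sets. Computations used SciPy 1.17.1, NumPy 2.4.6 and pandas 2.3.3 under Python 3.11.15, with plots by matplotlib 3.10.9.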

Additional observations from a re-analysis of the deposited data

How the results depend on the processing

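At a q under 0.01, 1 of the 6 genes stayed called, Nrp2 (1 higher, 0 lower, in 1 of 6 families), and 4 of the 7 other pathway genes. With a log2 fold change of at least 1 as well, 3 stayed, Ptk7, Epha2 and Sema7a (0 higher, 3 families), and 2 other pathway genes. By a Holm adjustment 0 signalling genes (0 higher, 0 lower, 0 families) and 1 other pathway gene, Daam1, passed, where 17 of the 104 had an unadjusted p under 0.05 and 67 of all genes passed. These settings are stricter by construction. The adjustment was repeated over the 12407 genes with an implied error of at most 1, and over the 14115 genes with unshared values. The same 6 signalling and 7 other pathway genes were called. These 2 settings are looser by construction, as the genes left out held no call, so no call could be lost. Over all genes they gave 321 and 306 calls, against 278. No paired analysis was possible because the deposited table holds 1 ratio per gene, and for the same reason fits that leave out a replicate were not run. The implied errors rest on a Wald-type test, and a gene that missed the threshold is not shown to be unchanged.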
